A study of Mus musculus with 5 samples.

Results

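The receptors for neurotrophic factors and for leukaemia inhibitory factor (LIF) were followed through the differentiation of mouse embryonic stem (ES) cells into motor neurons (MNs). The set was made of 9 genes out of 19889 named on the array: the neurotrophin receptors Ntrk2, Ntrk3 and Ngfr, the receptors of glial cell line-derived neurotrophic factor (GDNF) and its relatives Ret, Gfra1 and Gfra2, the cytokine receptors Cntfr and Lifr, and the ligand Bdnf. Members were taken by name, with earlier results of these data known. All probes whose RefSeq accession belongs to one of them were used, which gave 16 probes. There was a single probe for 6 genes, whereas Ntrk2 and Lifr had 3 probes each and Ntrk3 had 4 probes.

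Wild type male cells were profiled at 5 time points on Agilent one-colour microarrays, with 1 array per time point. The groups were undifferentiated ES cells (ES), embryoid bodies exposed to retinoic acid (RA) for 8 h (Day2), for 1 day (Day3) and for 2 days (Day4), and a sample called MN after 5 days of RA (Day7). The labels also have RA together with Shh given from day 2 to day 5, whereas the study's methods name the smoothened agonist SAG as the second inducer. No array held embryoid bodies without RA, so in comparisons with ES an effect of RA cannot be told apart from that of leaving ES culture. No ES cell line and no sorting step are named for the arrays, so each value is a level over all cells of a culture, in which fewer cells expressing a gene and less RNA per cell cannot be told apart. Values below are quantile-normalized log2 signals of a probe, on which 1 unit is a 2-fold difference, and they are compared between arrays for the same probe only. No time point had a replicate, so no test was made, and a gene was counted as raised or lowered at a fixed size of 2-fold or more.

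Neurotrophins signal through the Trk receptor tyrosine kinases, of which Ntrk2 (TrkB) answers to Bdnf and Ntrk3 (TrkC) to neurotrophin-3, and through Ngfr, a receptor without kinase activity that binds all of them. GDNF family ligands bind a membrane-anchored co-receptor, Gfra1 for GDNF or Gfra2 for neurturin, which brings them to the kinase Ret. LIF and ciliary neurotrophic factor (CNTF) both signal through Lifr and its partner Il6st to Jak kinases and Stat3, CNTF after binding Cntfr, and developing MNs depend on several of these factors for survival while mouse ES cells are kept pluripotent by LIF.

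Promoter sequence was at hand for 6 of the 9 genes (Bdnf, Cntfr, Gfra1, Lifr, Ngfr and Ntrk2), from RefSeq on the assembly GRCm38.p6, and the 250 bases before each of 18 start sites were searched on both strands for 5 motifs. The windows of Ngfr and Lifr are printed 5′ to 3′ on the gene's own strand because, read by their brightest probes, Ngfr had the widest rise from ES to Day7 and Lifr the widest fall from ES to Day2 among the 6. Capitals mark the GC box GGGCGG, the nuclear receptor half-site AGGTCA, or their reverse complements.
Ngfr: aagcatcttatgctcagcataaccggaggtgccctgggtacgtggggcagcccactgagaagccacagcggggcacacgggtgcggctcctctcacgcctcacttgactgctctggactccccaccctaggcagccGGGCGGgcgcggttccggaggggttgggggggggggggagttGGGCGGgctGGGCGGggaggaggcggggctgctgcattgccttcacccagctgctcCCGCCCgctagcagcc
Lifr: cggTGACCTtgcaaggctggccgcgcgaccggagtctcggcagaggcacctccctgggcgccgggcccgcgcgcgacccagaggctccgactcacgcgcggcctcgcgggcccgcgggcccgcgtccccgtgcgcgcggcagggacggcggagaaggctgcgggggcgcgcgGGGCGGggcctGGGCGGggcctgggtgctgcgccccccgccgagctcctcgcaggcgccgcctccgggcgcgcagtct
The Ngfr window lies on the minus strand at chr11:95587699-95587948, has a GC content of 70.4% and holds 4 GC boxes, at -114, -72, -63 and -16 from the start site. The Lifr window, the first of 2 for this gene, lies on the plus strand at chr15:7129322-7129571, has a GC content of 82.4% and holds 2 GC boxes, at -78 and -67, and 1 half-site at -247. The other Lifr window, at chr15:7140292-7140541, has a GC content of 50.8% and holds none of the 5 motifs. Over all 32851 windows of this length, 32.7% held a GC box and 14.0% held the half-site, against 7 and 2 of the 18 windows of the set. The TATA box TATAAA (12.4% of all windows) and the homeodomain site TAATTA (4.84%) were found in 0 of the 18, and the STAT site TTCNNNGAA (7.02%) in 1, a window of Bdnf. These are matches of letters and not shown sites of binding.

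The Day2 array stood apart from the others in its dim signals. Of 55681 mouse probes, 86.7% were well above background on Day2 against 57.5% to 65.7% on the other arrays, and of 96 ERCC probes, whose targets are not mouse genes, 64.6% were on Day2 against 4.17% to 9.38%. The lowest signal among probes well above background was 2.66 on Day2 after normalization against 4.27 to 5.22 on the others. Day7 alone was hybridised on a second slide, and an effect of the slide cannot be told apart from that of the time point. Where a probe was not well above background, its signal was replaced by that lowest signal if this was higher, and changes from it are written as at least so many fold.

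All 7 motor neuron markers examined were at least 2-fold higher on Day7 than in ES cells, with a median change of 6.98, and Chat, the enzyme that makes acetylcholine, rose to 12.21. Of 9 pluripotency markers, 7 were at least 2-fold lower on Day7 than in ES cells, and all 9 were still well above background there. Markers of glia and of sensory or neural crest cells were read in the same way. Of 6 glial markers with a value, 1 was raised (Mbp) and 3 lowered, and the astrocyte markers Gfap and S100b were not well above background on Day7, while of 7 sensory and neural crest markers, 1 was raised (Prph, which MNs also express) and 2 lowered. From Day4 to Day7, 1 of 7 glial markers was raised (Aldh1l1) and 1 lowered (Olig1), and of the 7 sensory and neural crest markers 3 were raised (Prph, Runx1 and Foxd3) and 1 lowered (Neurog1), beside 17.8% and 18.1% of all genes. Of these, Aldh1l1, Olig1 and Foxd3 were under 2-fold with another scaling. Of 7 neural progenitor markers, 5 were raised and 0 lowered from ES to Day4, beside 15.4% and 14.2% of all genes, and 3 were raised without normalization. Of 7 pan-neuronal markers, 6 were raised and 0 lowered from Day4 to Day7. Of 9 mesoderm and endoderm markers, 5 were well above background on Day4 and 4 on Day7. Among the 6 with a value from ES to Day4, 2 were raised (Gata6 and Sox17) and 1 lowered (T), and among the 5 with a value from Day4 to Day7, 0 were raised and 3 lowered (Sox17, Gata6 and Gata4). The part of such cells in the results below was not tested.

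Day7 was the time point at which most of the receptors were high. Of the 16 probes, 10 had their highest signal on Day7, among them all 4 of Ntrk3, and 4 in ES cells. The share of all probes on the array that were highest on Day7 was not counted. Well above background were 11 probes in ES cells, then 15, 14, 13 and 16 on the later arrays in order. From ES to Day7, 6 of the 9 genes were raised (Ret, Ntrk3, Ngfr, Gfra1, Gfra2 and Cntfr) where 23.2% of all genes tested were, and 1 was lowered (Ntrk2, by its brightest probe) where 24.4% of all genes were. With probes of a gene averaged, Ntrk2 was among 7 genes raised and 0 were lowered. The median change of the set was 2.60 on the log2 scale, beside -0.07 over all genes. In the last step, from Day4 to Day7, 6 genes were raised (Ntrk3, Ngfr, Gfra2, Ret, Lifr and Gfra1) where 17.8% of all genes were and 1, Cntfr, was lowered where 18.1% were, with a median of 2.27 beside -0.12. Lifr, whose change is this median, was raised on its brightest probe only, and its other probes changed by -0.11 and -0.07.

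Ngfr was far higher on Day7 than at any earlier time point. Its probe A_52_P236448 (NM_033217), spotted 10 times on the array, read 10.48 on the ES array, 8.56 for Day2, 9.04 for Day3, 9.67 for Day4 and 15.46 for Day7. It thus was lower on Day2 than in ES cells and stood above every earlier array on Day7. The small change between Day2 and Day3 turned direction with the setting, from 0.47 on the log2 scale to -0.48 without normalization. The SD of log2 signal between its spots was between 0.0351 on Day7, with 8 spots used, and 0.120 on Day2, with 10 spots, a measure of technical error on 1 array and not of error between cultures. Ngfr fell 3.77-fold from ES to Day2 and rose 55.4-fold from Day4 to Day7, which left it 31.6-fold above ES cells. The fall to Day2 was between -1.92 and -1.59 on the log2 scale under all alternative settings that gave a value, the rise from Day4 to Day7 between 5.39 and 6.71, and the rise from ES to Day7 between 4.51 and 4.98.

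Ntrk3, the neurotrophin-3 receptor, rose between Day4 and Day7 on each of its 4 probes. The brightest, A_66_P118329 (NM_008746), read 5.87 on the ES array, 3.44 for Day2, 5.86 for Day3, 5.42 for Day4 and 11.47 for Day7. Its ES, Day3 and Day4 signals were close to one another and to the lowest measurable signal of those arrays, and Day7 stood alone. The rise was 66.4-fold from Day4 and 48.4-fold from ES, or 6.05 and 5.60 on the log2 scale, against 4.69 and 4.57 with normexp and 7.45 and 6.02 without normalization. A_52_P500274 (NM_182809) read 4.63 in ES cells, not well above background, then 4.95, 6.62, 5.56 and 9.35, a rise of at least 20.2-fold from ES to Day7. This probe had a second, lower maximum on Day3 with quantile normalization, at least 3.05-fold above ES but under 2-fold with normexp (0.95) and with the floor set by the ERCC probes (0.039). Its change from Day2 to Day3, 1.67 on the log2 scale, was 0.19 with the 75th percentile shift and -0.54 without normalization. A_55_P2006808 (NM_182809) reached 8.68 and A_55_P2056533 (NM_008746) 9.20 on Day7, at least 12.7-fold and 18.3-fold above ES cells, in which both were not well above background. The smallest value for any Ntrk3 probe from ES to Day7, over the settings that gave one, was 2.10 on the log2 scale. The fall of A_66_P118329 from ES to Day2, -2.43, did not have this stability: it was -0.56 under a 75th percentile shift of the arrays and -0.33 without normalization, and over the same arrays the lowest measurable signal went from 5.01 to 2.66. Its 5.35-fold rise from Day2 to Day3 starts from the same Day2 value and was 0.34 on the log2 scale with the shift and -0.39 without normalization, and Day3 differed from ES by 1.01-fold.

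Ntrk2, the receptor for Bdnf, gave different courses on its 3 probes. A_55_P2006792 (NM_001025074), the brightest, read 10.94 on the ES array, 11.46 for Day2, 11.23 for Day3, 9.96 for Day4 and 9.58 for Day7. The first 3 arrays were high and the last 2 low, with a fall of 2.41-fold from Day3 to Day4 and of 2.58-fold from ES to Day7. A_51_P393454, designed on the same accession and spotted 10 times, read 2.53, 2.11, 2.81 and 2.36 on the first 4 arrays, not well above background on any, and 10.19 on Day7. The SD between its spots was 0.0449 on Day7 (10 spots used) and between 0.122 and 0.222 on the others. Its rise was at least 60.2-fold from Day4 and at least 36.1-fold from ES. The rise from Day4, 5.91 on the log2 scale, was 4.05 with normexp and reached 7.82 with another detection flag. The third probe, A_65_P04961 (NM_008745), stayed dim, with 6.21, 5.25, 5.82, 4.74 and 6.11 from ES to Day7. It was 2.57-fold higher on Day7 than on Day4, though 0.57 on the log2 scale with normexp, and 1.07-fold lower than in ES cells. Opposite directions from ES to Day7 on 2 probes of one accession were found in the settings that gave both a value, with -1.48 to -1.12 for A_55_P2006792 and 3.61 to 7.66 for A_51_P393454. The position of each probe within the transcript was not given in the sources used here, so the probes could not be assigned to transcript forms.

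**Figure D1:**
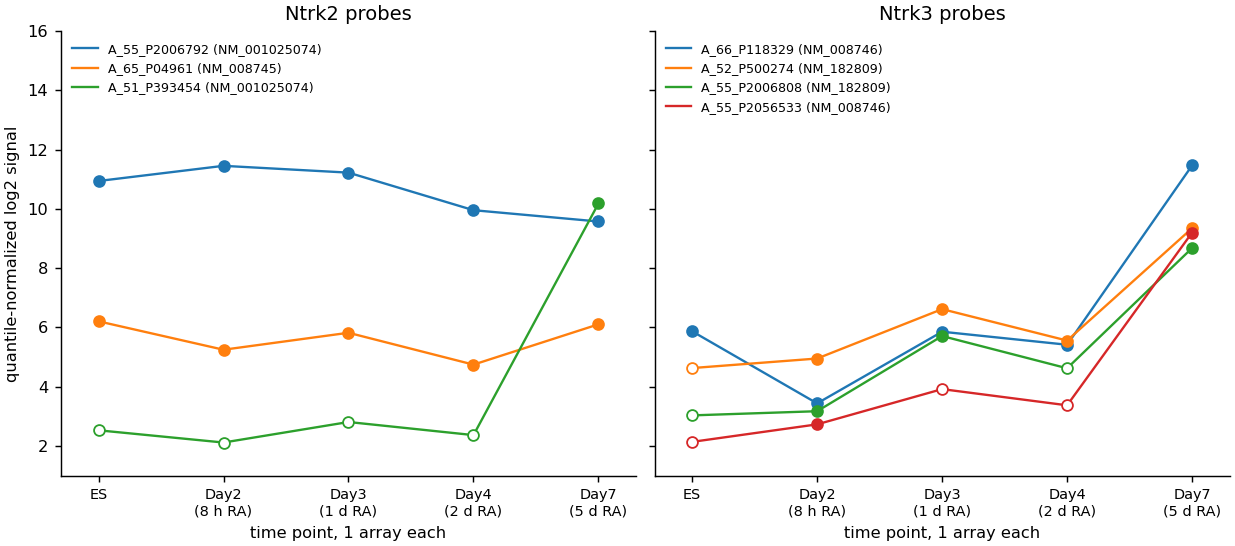
Quantile-normalized log2 signal (y axis) of the 3 Ntrk2 probes (left) and the 4 Ntrk3 probes (right) at the 5 time points (x axis), 1 array each, with open symbols for values not well above background. All Ntrk3 probes are highest on Day7, between 8.68 and 11.47, whereas for Ntrk2 A_51_P393454 rises to 10.19 and A_55_P2006792 falls to 9.58.

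Bdnf, the ligand of Ntrk2, was highest in ES cells. Its probe A_55_P2036303 (NM_007540) read 8.41 on the ES array, 6.81 for Day2, 6.92 for Day3, 6.89 for Day4 and 7.77 for Day7. With quantile normalization the 3 embryoid body arrays lay within 0.11 of one another, and Day7 lay between them and ES. The change from Day2 to Day3 was, however, -0.70 with the 75th percentile shift and -1.44 without normalization. Bdnf was 2.86-fold lower on Day4 than in ES cells, which held at -2.50 to -1.05 under the alternatives, and 1.55-fold lower on Day7. Its 3.03-fold fall from ES to Day2 was under 2-fold in 3 settings (-0.95 with the 75th percentile shift, -0.72 without normalization and -0.95 in the deposited table).

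Ret, the kinase shared by the GDNF family, was already raised on Day3. The probe A_55_P2160676 (NM_001080780) read 5.62 on the ES array, 4.63 for Day2, 8.40 for Day3, 8.37 for Day4 and 11.29 for Day7. It rose in 2 steps with a plateau on Day3 and Day4, 13.7-fold from Day2 to Day3 and 7.56-fold from Day4 to Day7, and was 51.0-fold above ES cells at the end. The first step, 3.77 on the log2 scale, was 1.01 with the ERCC floor, and the second, 2.92, was 4.19 without normalization. Against ES cells, which leaves out the Day2 array, it was 6.88-fold higher on Day3, at 1.61 to 2.98 on the log2 scale over the alternatives. The change from ES to Day7 was between 4.21 and 6.12 on the log2 scale over the alternatives. Between ES and Day2, however, its direction turned with the setting, from -0.99 to 0.73.

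Gfra1, the GDNF co-receptor, was highest on Day7. A_52_P398998 (NM_010279) read 5.00 on the ES array, not well above background, then 4.70 for Day2, 6.92 for Day3, 6.05 for Day4 and 8.21 for Day7. It was at least 3.76-fold above ES on Day3, at least 2.05-fold on Day4 and at least 9.22-fold on Day7. The Day3 value was under 2-fold with normexp (0.84) and with a floor set by the ERCC probes (0.34). The Day4 value was under 2-fold in 3 settings (0.10 without normalization, 0.36 with normexp background correction and no fold with the ERCC floor), while the Day7 value stayed at 1.64 or more. From ES to Day2 no fold could be given, against 1.16 with the 75th percentile shift and in the deposited table and 1.39 without normalization.

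Gfra2, the neurturin co-receptor, was within 2-fold of ES cells on Day3. A_55_P1968703 (NM_008115) read 7.12 on the ES array, 6.84 for Day2, 7.55 for Day3, 5.73 for Day4 and 9.72 for Day7. Day4 was its lowest array and Day7 its highest, so that it was 2.62-fold below ES cells on Day4 and 6.06-fold above them on Day7. The fall to Day4 was -0.70 on the log2 scale, under 2-fold, with normexp, and the rise to Day7 was 2.28 to 3.06 over the alternatives.

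**Figure D2:**
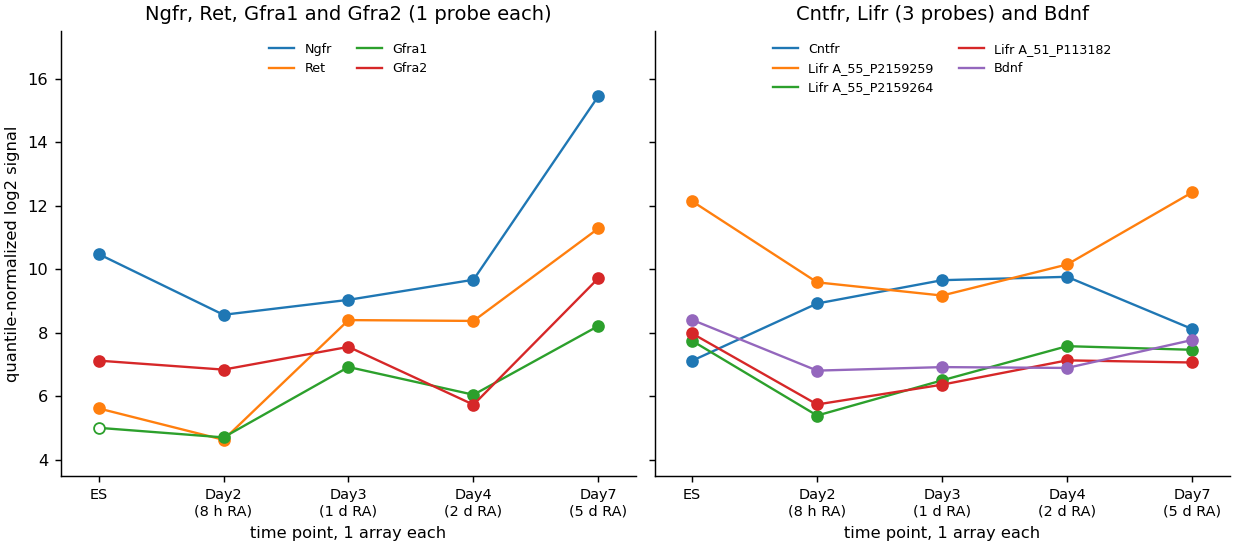
Quantile-normalized log2 signal (y axis) at the 5 time points (x axis), 1 array each, of Ngfr, Ret, Gfra1 and Gfra2 (left) and of Cntfr, the 3 Lifr probes and Bdnf (right), with an open symbol where a value was not well above background. The 4 genes on the left are highest on Day7, Cntfr is highest on Day4 at 9.76, and the brightest Lifr probe is low from Day2 to Day4 and back at 12.42 on Day7.

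Lifr was lower on Day2 than in ES cells on each of its 3 probes. The brightest, A_55_P2159259 (NM_013584), read 12.14 on the ES array, 9.59 for Day2, 9.17 for Day3, 10.15 for Day4 and 12.42 for Day7. ES and Day7 were high and the 3 embryoid body arrays low, with a fall of 5.88-fold from ES to Day2 and a rise of 4.83-fold from Day4 to Day7. The fall was between -2.80 and -2.42 over the alternatives, and Day7 differed from ES by 1.21-fold. A_55_P2159264 (NM_001113386) read 7.74, 5.39, 6.50, 7.58 and 7.46 in the order of the time points, and A_51_P113182, on the same accession as the brightest probe, read 7.98, 5.74, 6.36, 7.13 and 7.06. These dimmer probes were lowest on Day2 with quantile normalization, though not without normalization, with the 75th percentile shift or in the deposited table. They had returned to within 2-fold of ES by Day4 (-0.17 and -0.85 on the log2 scale, but -1.08 and -1.79 without normalization), when the brightest was still 3.98-fold below. Their falls of 5.11-fold and 4.72-fold from ES to Day2 were under 2-fold without normalization (-0.97 for both) and with the ERCC floor (-0.35 and -0.59). From Day4 to Day7 they changed by -0.11 and -0.07 on the log2 scale, against 2.27 for the brightest probe.

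Cntfr, the CNTF-binding subunit, was highest in embryoid bodies. A_55_P2133007 (NM_001136056) read 7.12 on the ES array, 8.92 for Day2, 9.66 for Day3, 9.76 for Day4 and 8.12 for Day7. The embryoid body arrays were high and ES and Day7 low. Gata6, an endoderm marker, was also highest on Day4, with 6.17, 6.47, 7.78, 10.43 and 6.59 from ES to Day7, and Sox17 was highest on Day3 and Day4, with 6.55, 6.40, 8.70, 8.96 and 4.94, the last not well above background. Both stayed past 2-fold from ES to Day4 and from Day4 to Day7 under the other scalings. Of the same list, Gata4 changed by 0.64 and T by -2.93 from ES to Day4. The neural progenitor markers Pax6, Sox3 and Olig2 were also raised from ES to Day4 (3.51, 1.80 and 1.13). From Day4 to Day7 they were lowered (-5.11, -2.10 and -4.12). Sox3 and Olig2 were under 2-fold from ES to Day4 with another scaling. Nkx6-1 and Irx3 were raised in both steps, and Sox1 and Nes were under 2-fold in both. The part of any of these cells in the course of Cntfr was not tested. Cntfr rose 3.49-fold from ES to Day2 and 6.25-fold to Day4, at 1.79 or more on the log2 scale for Day4 under every setting. It then fell 3.12-fold to Day7, where it was 2-fold above ES, at the limit of the rule, and 0.61 above on the log2 scale with normexp. The fall from Day4 to Day7 was -0.38 without normalization.

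Among the early steps, from ES to Day2 1 of the 9 genes was raised (Cntfr) where 8.82% of all genes tested were, and 4 were lowered (Lifr, Ntrk3, Ngfr and Bdnf) where 11.3% were. The median change was -0.99 beside 0.00 over all genes with quantile normalization but 0.32 under the 75th percentile shift, where 2 were raised and 2 lowered. Over all genes, 43.9% of those changed were raised in this step with quantile normalization and 70.2% with that shift. From Day2 to Day3, 3 genes were raised (Ret, Ntrk3 and Gfra1) where 13.0% of all genes were, and 0 were lowered where 7.76% were. This count rests on the Day2 array, and only Ret remained among the raised genes with the 75th percentile shift, without normalization, with normexp, in the deposited table and with the ERCC floor, while 2 genes, Lifr and Bdnf, were lowered without normalization. Over all genes, 62.6% of those changed in this step were raised with quantile normalization and 25.5% with the shift. From Day3 to Day4, 0 were raised where 3.62% of all genes were, and 2 were lowered (Gfra2 and Ntrk2) where 4.85% were. Lifr, at 0.98 on the log2 scale in this step, was just past 2-fold in 3 of the settings.

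Set directly against ES cells, the middle time points were mixed. On Day3, 3 genes were raised (Ret, Cntfr and Gfra1) where 14.2% of all genes were and 3 were lowered (Lifr, Bdnf and Ngfr) where 10.2% were. On Day4, 3 were raised, again Ret, Cntfr and Gfra1, where 15.4% of all genes were and 3 were lowered (Lifr, Bdnf and Gfra2) where 14.2% were, with a median of -0.81 beside 0.01. All comparisons with ES share the 1 ES array, and both early steps share the Day2 array. Of 58 changes of single probes that reached 2-fold in the 7 comparisons, 36 stayed past 2-fold under every alternative that gave a value and 22 did not. Those that changed sign were 3 Ntrk3 probes, Gfra1 and the Lifr probe A_55_P2159264, each from Day2 to Day3.

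**Figure D3:**
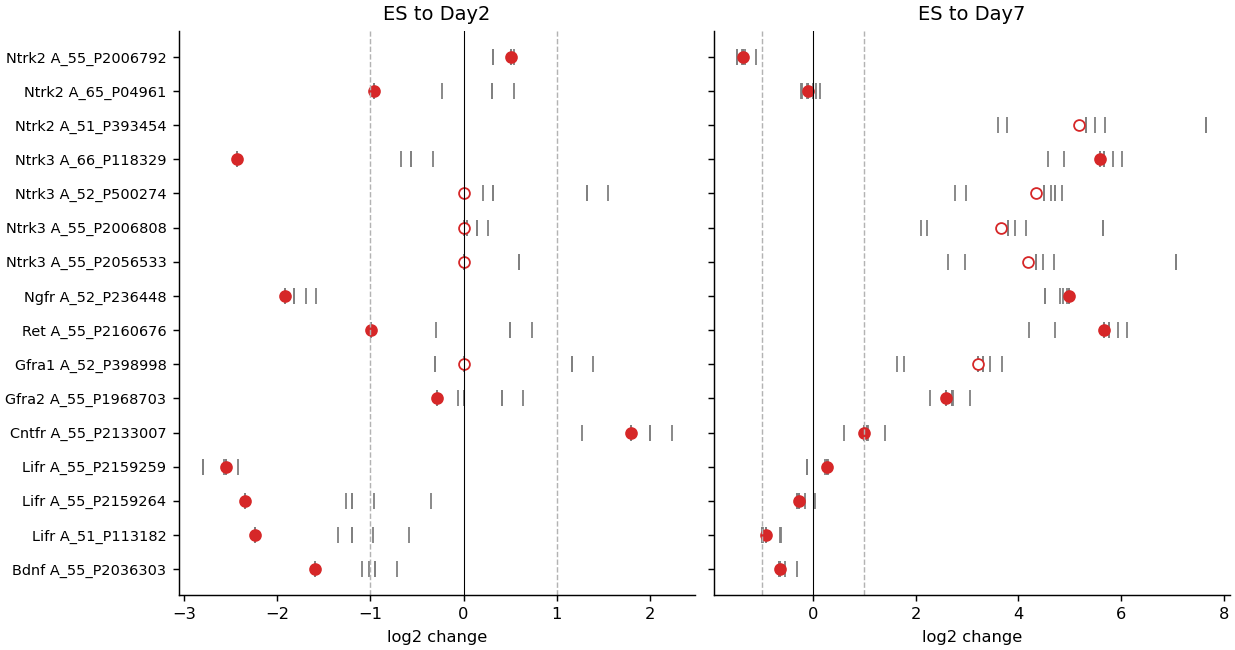
Log2 change (x axis) of each of the 16 probes (rows) from ES to Day2 (left) and from ES to Day7 (right), with red circles for the values reported, open where the value is a lower bound or no fold could be given, grey ticks for the alternative settings and dashed lines at 2-fold. Ntrk2 A_51_P393454 has no value on the left because it was not well above background on either array. Ticks of dim probes such as Ret and Gfra1 lie on both sides of 0 for Day2, whereas for Day7 all ticks of Ntrk3, Ngfr, Ret, Gfra1 and Gfra2 lie above 1.

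The ligands and other receptors of the same pathways were read from lists. Of 7 neurotrophins and sortilin family receptors with a value from ES to Day7, 6 were raised and 1 was lowered, beside 23.2% and 24.4% of all genes. Raised were Ntf3, Sorcs2, Sorcs3, Sorcs1, Sorl1 and Sort1, and lowered was Ntf5. The median change was 3.87, in a list where all but Ntf3 and Ntf5 are of the sortilin family. Ntf3, which encodes the ligand of Ntrk3, read 6.86, 3.74, 5.70, 7.22 and 11.86 from ES to Day7 and so was also highest on Day7, 32.0-fold above ES cells. Ntf5, which encodes neurotrophin-4, a ligand of Ntrk2, fell 5.53-fold over the same span. The sortilin family member Sorcs2 rose 19.2-fold and Sorcs1 and Sorcs3 at least 14.6-fold and 16.5-fold. The counts of raised and lowered genes in this list from ES to Day7 were also 6 and 1 under the other 4 scalings.

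For the GDNF family, 8 of 10 ligands and other receptors had a value from ES to Day7, with 3 raised and 3 lowered, beside 23.2% and 24.4% of all genes. The median was -0.33, or -0.75 under the 75th percentile shift. Ncam1, an adhesion molecule that can also bind GDNF, rose 94.4-fold and the proteoglycan Sdc3 42.8-fold. Gdnf was at least 3.46-fold above ES cells on Day7, at 6.80, whereas the ligands Nrtn and Artn fell 2.66-fold and 6.67-fold. On Day7, therefore, Gfra2 was above its ES level while the gene of its ligand neurturin, Nrtn, was below. Of 19 adaptors of these receptors, 7 were raised from ES to Day7 and 3 lowered, beside 23.2% and 24.4% of all genes, with a median of 0.72, or 0.17 under the 75th percentile shift. Among them Shc2 rose 12.6-fold, Shc3 at least 6.25-fold and Maged1, which binds Ngfr, 10.9-fold. Shc1 fell 4.78-fold, and Bex1 and Gab1 changed by -2.33 and -1.74 on the log2 scale. Of 7 other receptors for factors that act on MNs, 3 were raised (Epha4, Igf1r and Tgfbr2) and 2 lowered (Flt1 and Erbb3, the latter under 2-fold with normexp), beside the same shares of all genes.

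In the LIF pathway, Stat3 and the feedback inhibitor Socs3 were lower on Day2 than in ES cells, as Lifr was, while the feedback inhibitor Socs1 was close to its ES level (9.90 against 9.97). Of 12 genes of Jak and Stat signalling with a value from ES to Day2, 0 were raised and 3 were lowered (Socs3, Stat3 and Cish), beside 8.82% and 11.3% of all genes, with a median of -0.23 that turned to 0.18 without normalization. Socs3 read 13.36, 10.26, 10.30, 11.33 and 11.38 from ES to Day7, a fall of 8.56-fold to Day2. Stat3 read 12.33, 9.96, 10.73, 11.77 and 12.21, a change of -2.38 from ES to Day2 and a level on Day7 within 1.09-fold of ES. Under the other scalings the change from ES to Day2 stayed past 2-fold for Socs3, reaching -3.51, and for Stat3, at -2.68 to -2.28, whereas that of Cish was -1.11 to -0.88. Socs3 was still 3.94-fold below ES cells on Day7, where Stat3 and the brightest Lifr probe had returned. Il6st, the shared signalling subunit, stayed within 2-fold of ES in the comparisons with Day2, Day4 and Day7. Of the ligands, Lif was 2.51-fold above ES on Day2 and 3.61-fold lower on Day7 than on Day4, and both changes were under 2-fold with normexp. Over 10 ligands and other receptors of the family, 0 were raised and 3 were lowered from ES to Day7 (Ctf1, Ctf2 and Il11), beside 23.2% and 24.4% of all genes, with a median of -0.74. The number lowered was 5 under the 75th percentile shift and 1 with normexp.

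**Figure D4:**
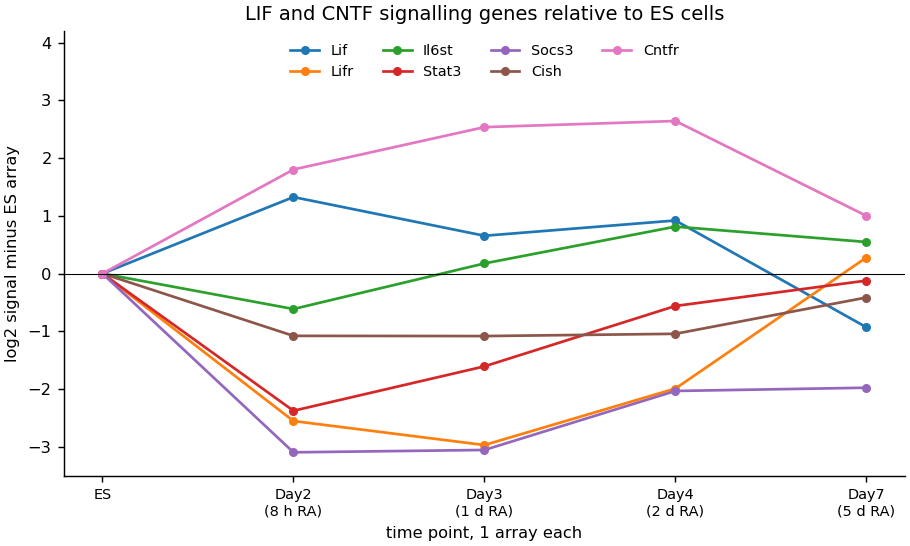
Log2 signal minus the ES array (y axis) at the 5 time points (x axis), 1 array each, of Lif, Lifr (brightest probe), Il6st, Stat3, Socs3, Cish and Cntfr. Lifr, Stat3 and Socs3 are below 0 from Day2 to Day4, Cntfr is above 0 on all later arrays with its maximum of 2.64 on Day4, and Socs3 remains at -1.98 on Day7.

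The genes whose course over the 5 arrays was most like that of a receptor were found by the root mean square difference of mean-centred log2 profiles among 6960 genes, with dim values set at the lowest measurable signal of their array. Nearest to Cntfr were Nrip1 (0.09), Dgkz (0.15) and Ier5l (0.15). Nearest to the brightest Lifr probe were Emp1 (0.19), Jam2 (0.22) and Nmnat3 (0.31), and nearest to Ngfr were Id4 (0.35), Mapt (0.37) and Dync1i1 (0.45). Ntrk3 was most like Pcdhb3 (0.14), Tacr1 (0.17) and Fstl5 (0.17), a likeness in which the early arrays rest on signals near the lowest measurable one. For Gfra1 they were Zfp560 (0.16), Enpp5 (0.17) and Abca5 (0.22), for Gfra2 Galnt9 (0.21), Gucy1b1 (0.22) and Pcsk1 (0.29), and for Ret Dchs1 (0.42), Tpbpb (0.43) and Slc24a3 (0.43). With 5 points on a common set of arrays, these distances are descriptions only.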

How the data were processed

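RNA of 5 samples was hybridised to 5 one-colour Agilent arrays. The intensity of each spot, background-subtracted and detrended, was deposited by the authors as given by Feature Extraction 10.5.1, together with other columns of flags for detection and outliers that the authors deposited unchanged. The authors also deposited a log2 table, which equalled log2 of that signal minus a constant within 0.01 of the 75th percentile on every array, with column medians of -3.71 to -2.62. Its columns all belonged to the 5 samples, and 0 others were present. After outlier spots were dropped, log2 signals were averaged over the spots of a probe and brought to a common distribution with limma 3.58.1 (R 4.3.3) by quantile normalization, because the study's legend names quantile analysis. Further steps used Python 3.11.15, numpy 2.4.6, pandas 2.3.3 and matplotlib 3.10.9. Of 55681 probes, 8 lacked a clean spot on some array, and 26290 of the rest were named by accession through RefSeq (GRCm38.p6, names only, since the design build is mm9), giving 19889 genes, 5337 with several probes. A probe was well above background where most of its kept spots were. Each gene was read by the probe with the highest mean. A gene dim on both arrays of a comparison had no value, and those whose bright side did not exceed the dim side's floor entered as 0. The number of arrays limits precision.

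The 9 members, the pathway and marker lists and the rules were chosen with earlier results of these data known. A few genes of the neurotrophin, LIF family, glial and sensory lists are not reported here and, for a reason other than their values, were left out of the counts and medians of those lists after the values were seen. All probes of the 9 members are named, with list genes that passed 2-fold or show which ligands were detected, and the 3 most similar genes of each receptor whose levels spanned 2 log2 units or more, which left out Ntrk2. Alternatives were a shift to the 75th percentile, no normalization, normexp with an offset of 50, the deposited table, another detection flag, no filter, both arrays detected, a floor at the 95th percentile of ERCC probes, other probe choices, thresholds of 1.5-fold and 4-fold, and normalization without Day2. For ES to Day3, Day2 to Day3 and Day3 to Day4 they were added after the data were seen. The steps were tested on data simulated from the ES array, with the same detection flags on every array. Such data lack the differences in dim signals seen on Day2, so they do not test calls that rest on them.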

Additional observations from a re-analysis of the deposited data

How the results depend on the processing

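No paired analysis was possible because every group held 1 array, so no replicate could be left out, and slide could not be fitted as a block because each time point lay on 1 slide. The normexp correction used median spot signals in place of the planned means. Over the settings run, 149 counts of members stayed within 1.5 times the reported one and 29 moved. The settings for ES to Day3, Day2 to Day3 and Day3 to Day4 were added after the data were seen. From ES to Day2, the number raised was 2 with the 75th percentile shift, without normalization and in the deposited table, and 0 at 4-fold, and the number lowered was 2 in each of these 4 settings. From ES to Day4 the number lowered was 6 without normalization, 5 at 1.5-fold and 0 at 4-fold. From Day4 to Day7 the number lowered was 0 without normalization and 0 at 4-fold, and from ES to Day7 it was 0 with probes of a gene averaged, when Ntrk2 was one of 7 raised, 2 at 1.5-fold and 0 at 4-fold. From ES to Day3 the number lowered was 1 at 4-fold. From Day2 to Day3 the number raised was 1 with the shift, without normalization, with normexp, in the deposited table and with the ERCC floor, and 5 at 1.5-fold, and the number lowered was 2 without normalization. From Day3 to Day4 the number raised was 1 with the shift, in the deposited table and without the Day2 array, and 2 at 1.5-fold, and the number lowered was 0 at 4-fold.

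Without normalization the median of all genes moved by 0.20 from ES to Day2, to -1.07 from ES to Day4 and to 1.06 from Day4 to Day7, and the share of changed genes that were raised went from 52.0% to 8.12% from ES to Day4 and from 49.5% to 94.0% from Day4 to Day7. With the 75th percentile shift the median was -0.35 from ES to Day7 and the raised share 39.1% against 48.7%. In the steps added, the share raised of genes changed was 25.5% from Day2 to Day3 with the shift and 3.41% without normalization against 62.6%, from ES to Day3 it was 45.9% and 16.1% against 58.1%, and from Day3 to Day4 it was 52.9% with normexp and 20.1% without normalization against 42.8%. Of all genes from Day2 to Day3, 1065 were raised with the shift and 1063 with normexp against 2374. Changes of 2-fold or more reversed in 1 step, from Day2 to Day3: without normalization the Ntrk3 probes A_52_P500274, A_55_P2006808 and A_66_P118329 changed by -0.54, -0.29 and -0.39, Gfra1 by -0.043 and Lifr A_55_P2159264 by -0.97, and the last by -0.23 with the shift and in the deposited table. Among all genes from ES to Day2, 3017 were raised with the shift against 1615, and 959 with normexp. The cause of these differences was not tested.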
